A study of Mus musculus with 10 samples.

Results

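Transcript levels of 10 genes that carry an interferon signal from the ligand to the kinases at the cell membrane were examined in 10 mouse melanoma tumours. The genes were the interferons Ifnb1 and Ifng, the receptor chains Ifnar1, Ifnar2, Ifngr1, Ifngr2 and Il10rb, and the Janus kinases Jak1, Jak2 and Tyk2. They were chosen by symbol, and all 10 were found among the 52636 Ensembl genes of the count table. All tumours carried BrafCA, an inducible oncogenic allele of the kinase gene Braf, and a floxed Cdkn2a tumour suppressor locus (Cdkn2af/f). In 6 tumours the genotype also held Arf6Q67L, an active form of the small GTPase ARF6, and the 4 tumours without it are called controls. The labels give neither the driver of recombination nor the age of the mice or the site of the tumour. Sex is not in the labels either. Judged by Y-linked transcripts, 3 Arf6Q67L and 3 control tumours were male.

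Type I interferons, which include interferon-beta, bind a receptor made of IFNAR1 and IFNAR2, on which TYK2 and JAK1 sit. Interferon-gamma, made mainly by T cells and natural killer cells, binds IFNGR1 and IFNGR2, which use JAK1 and JAK2. The kinases phosphorylate STAT factors, which enter the nucleus and switch on interferon-stimulated genes, either through the interferon-stimulated response element (ISRE) or through the gamma-activated site (GAS). IL10RB is the shared second chain of the receptors for interleukin-10, interleukin-22 and interferon-lambda.

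Libraries held between 28635414 and 40869091 counts, and levels are given as CPM, the count scaled to a library of 1000000 with TMM factors. The labels call the tissue melanoma tumour. Of 9 melanocyte markers, Tyr and Dct were at 0 in all 10 tumours, and Tyrp1 and Mlana did not exceed 3 counts in any tumour. The other 5, Pmel, Sox10, S100b, Ednrb and Mitf, had counts in all 10 tumours. Ednrb averaged 10.3 and 12.8 CPM, and Pmel, Sox10 and S100b between 0.411 and 1.65 CPM, in the genotypes. Mitf, the master regulator of the lineage, averaged 17.0 ± 5.57 CPM (n = 6, SD) with Arf6Q67L against 16.6 ± 4.18 CPM (n = 4, SD) without it. The pigment enzyme genes Tyr, Dct and Tyrp1 were thus at or near 0 in both genotypes. Library numbers in the header follow the genotype, and the effects of order and of genotype cannot be told apart. Arf6 itself averaged 104 ± 21.3 CPM with Arf6Q67L (n = 6, SD) and 93.0 ± 17.4 CPM in controls (n = 4, SD) with overlapping groups (edgeR adjusted p = 0.758), so its total level does not check the labels. The tissue was bulk tumour, so that fewer cells of a type and less RNA per cell cannot be told apart.

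The regions before the start sites are shown for the ligands, which were the members that differed most between tumours, for Ifnar2 and Tyk2 as receptor and kinase, and for Irgm2, a target of interferon-gamma, as a comparison. Each is the stretch of 250 bases upstream of the RefSeq start site (GRCm38.p6), written 5′ to 3′ on the strand of the gene. Capitals mark matches to the TATA box (TATAAA), the GAS (TTCNNNGAA) and the ISRE (GAAA, any 2 bases, GAAA), each searched on both strands.
Ifnb1, chr4:88522795-88523044, minus strand: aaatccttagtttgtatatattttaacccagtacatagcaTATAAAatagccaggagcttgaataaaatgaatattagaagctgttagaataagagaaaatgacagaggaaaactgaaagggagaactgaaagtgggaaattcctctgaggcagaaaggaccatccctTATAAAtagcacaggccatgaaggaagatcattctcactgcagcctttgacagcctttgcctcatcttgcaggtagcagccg
Ifng, chr10:118440796-118441045, plus strand: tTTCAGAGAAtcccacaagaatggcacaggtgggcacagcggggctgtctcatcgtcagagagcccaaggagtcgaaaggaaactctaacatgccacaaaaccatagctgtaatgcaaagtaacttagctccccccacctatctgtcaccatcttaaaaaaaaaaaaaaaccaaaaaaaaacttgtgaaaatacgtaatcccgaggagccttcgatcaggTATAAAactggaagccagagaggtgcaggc
Ifnar2, chr16:91372533-91372782, plus strand: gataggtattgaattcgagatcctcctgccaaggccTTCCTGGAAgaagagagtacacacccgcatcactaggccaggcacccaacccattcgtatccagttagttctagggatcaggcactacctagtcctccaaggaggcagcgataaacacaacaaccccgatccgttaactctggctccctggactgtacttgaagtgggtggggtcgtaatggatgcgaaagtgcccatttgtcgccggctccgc
Tyk2, chr9:21131276-21131525, minus strand: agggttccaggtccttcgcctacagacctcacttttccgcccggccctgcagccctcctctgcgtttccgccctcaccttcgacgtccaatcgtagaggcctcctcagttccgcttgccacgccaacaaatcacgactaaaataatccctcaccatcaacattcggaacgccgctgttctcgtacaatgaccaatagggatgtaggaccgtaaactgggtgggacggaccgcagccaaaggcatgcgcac
Irgm2, chr11:58214727-58214976, plus strand: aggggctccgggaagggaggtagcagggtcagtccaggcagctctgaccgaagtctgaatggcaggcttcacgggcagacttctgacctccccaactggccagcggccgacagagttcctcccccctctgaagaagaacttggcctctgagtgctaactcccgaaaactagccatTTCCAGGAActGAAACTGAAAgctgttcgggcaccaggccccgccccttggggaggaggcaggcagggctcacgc
In Ifng a TATA box lay 30 to 25 bases before the start site, and Ifnb1 held 2 matches, of which the nearer lay 82 to 77 bases before it. Among the 9 members with a sequence in the table (Il10rb had none) no receptor or kinase held a TATA match, against 12.4% of all 32851 promoter windows. GC content was 39.6% for Ifnb1 and 45.2% for Ifng, whereas it ran from 54.0% for Ifnar2 to 80.8% for Jak2 in the 7 receptor and kinase windows, with a median of 52.4% over all windows. The GAS letters were present in Ifng and Ifnar2 (2 of 9 members, and 7.02% of all windows). The ISRE letters were in 0 of 9 members and in 2.98% of all windows, but in 10 of the 17 interferon-gamma target genes that matched the table, and in 7 of the 14 matched type I target genes. The GAS letters were in 7 of those 17 and in 2 of those 14 genes. Only the exact letters were searched, so an element with other letters or spacing was not counted. In Irgm2 the GAS and the ISRE lay 75 to 67 and 64 to 55 bases before the start site. It is an example with both matches, and most of the 17 matched interferon-gamma targets do not hold both.

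Among the ligands, Ifng (chromosome 10, 118441046 to 118445892) had the lower mean in Arf6Q67L tumours, at 0.588 ± 0.713 CPM (n = 6, SD) against 3.98 ± 4.23 CPM (n = 4, SD). The level with Arf6Q67L was 0.0271 CPM at the lowest, 0.228 CPM at the median and 1.64 CPM at the highest, from 1 to 63 counts. Controls 1 to 4 stood at 0.761, 4.81, 0.705 and 9.63 CPM. Arf6Q67L tumours 1, 2, 3 and 6 lay below every control, while tumours 4 and 5 lay between the low controls 1 and 3 and the high controls 2 and 4. The log2 fold change was -2.75 (SE 1.09, 95% interval -5.18 to -0.31) with an unadjusted p of 0.0306 in edgeR's quasi-likelihood test and an adjusted p of 0.386. DESeq2 gave an adjusted p of 0.152, and the two-sided exact permutation test gave p = 0.0524. Without control 4 the log2 fold change was -1.81.

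Markers of the cells that make interferon-gamma were set beside this gene. The log2 fold change was negative for 15 of 15 T cell markers, at a median of -2.02 against 0 over all genes, and 0 of the 15 were without counts. In edgeR and in DESeq2 0 of 15 passed, with 6 lower at an unadjusted p under 0.05 (7.05% of all genes were). Their summed level ran from 34.1 to 163 CPM in Arf6Q67L tumours and from 72.0 to 551 CPM in controls, with the highest value in control 4, as for Ifng. Of 9 natural killer and cytotoxic cell markers 6 were negative and 3 positive (Ncr1 at 0.17, Klrb1c at 0.08 and Gzma at 0.36), at a median of -0.49, with 0 without counts. In edgeR and in DESeq2 0 of 9 passed, with 3 lower at an unadjusted p under 0.05 (7.05% of all genes were). Their summed levels of 15.1 to 177 CPM with Arf6Q67L and 63.8 to 477 CPM without it did not follow Ifng in every tumour: Arf6Q67L tumour 1, with the lowest Ifng, had the highest sum of its genotype (177 CPM), above controls 1 and 3 at 85.1 and 63.8 CPM. The part of either cell type in the difference in Ifng was not tested.

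Ifnb1 (chromosome 4, 88522025 to 88522774) was close to the detection limit and did not pass the low-count filter, unlike the other 9 members. Arf6Q67L tumours 1 to 6 held 1, 0, 1, 1, 1 and 0 counts, and controls 1 to 4 held 8, 1, 2 and 3 counts. Arf6Q67L tumours 2 and 6, at 0 counts, lay below every control. Tumours 1, 4 and 5 held the same 1 count as control 2. They were lower in CPM (0.0271, 0.0313 and 0.026 against 0.0314) only through library scaling. Only control 1 exceeded the 3 counts that a count of 0 allows, so most of these values cannot be told from 0 at this depth. The means were 0.0194 ± 0.0152 CPM (n = 6, SD) and 0.101 ± 0.0734 CPM (n = 4, SD), and the exact permutation p on the log2 scale was 0.00952, with no adjustment over genes. That test rests on the same low counts, so no difference between genotypes is read from it. Of 19 other interferon genes 11 were at 0 in all tumours, and 7 had at least 1 count but never more than 2, with 18 counts in total over all tumours. The remaining gene, Ifne, an epithelial type I interferon, averaged 0.463 ± 0.576 CPM with Arf6Q67L (n = 6, SD) and 0.315 ± 0.101 CPM in controls (n = 4, SD). That is 0.55 on the log2 scale (SE 0.72, edgeR adjusted p = 0.808). Its highest value was 1.63 CPM, in an Arf6Q67L tumour.

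**Figure D1:**
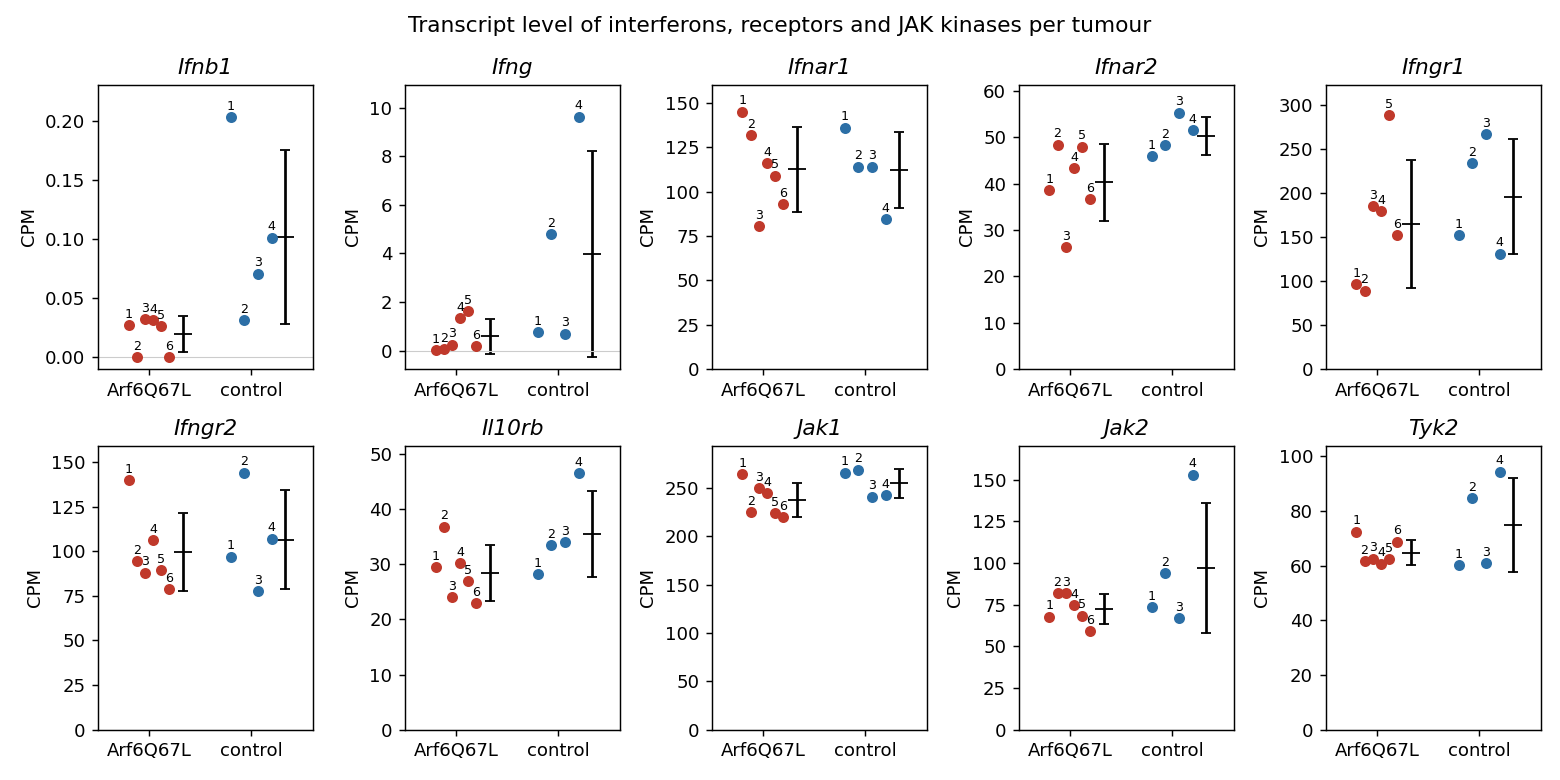
Each panel plots the level of 1 gene in CPM (linear axis) for 6 Arf6Q67L and 4 control tumours, with the tumour's number beside its point and the mean ± SD as a bar. Ifng and Ifnb1 are highest in controls 4 and 1, at 9.63 and 0.203 CPM, and levels overlap between genotypes in every panel.

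Log2 fold changes of receptors and kinases lay between -0.42 and 0.01, closer to 0 than that of Ifng. In edgeR 0 of 9 tested members were past an adjusted p of 0.05 in either direction, where the share over all 17286 genes was also 0%, and in DESeq2 0 of 9 were, against 0.789% higher and 1.28% lower over all genes. In limma-voom and in the classic exact test of edgeR 0 of 9 passed, compared with 0.0116% and 1.12% of all genes. At an unadjusted p under 0.05, 1 of 9 members was lower (Ifng) and 0 were higher, where 7.05% of all genes were lower and 4.65% higher (11.7% in all). Groups without overlap were found for 0 of the 9, compared with 2.44% of all genes, of which 1.28% were lower and 1.15% higher in Arf6Q67L tumours. The log2 fold change was negative in 8 of 9 members, compared with 50.3% of all genes, and the median was -0.25, where that of all genes was 0.

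Ifnar2 (chromosome 16, 91372783 to 91405589), the chain of the type I receptor that binds the ligand most tightly, had the lowest p among receptors and kinases (unadjusted p = 0.0707 in edgeR). Arf6Q67L tumours ran from 26.3 CPM through a median of 41 to 48.4 CPM, and controls 1 to 4 stood at 45.9, 48.3, 55.3 and 51.6 CPM. Of the Arf6Q67L tumours 4 lay below every control, and tumours 2 and 5 reached the level of the lower controls. On the log2 scale the difference was -0.32 (SE 0.16, 95% interval -0.68 to 0.03) with an edgeR adjusted p of 0.465, and it was -0.21 without Arf6Q67L tumour 3.

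Ifnar1 (chromosome 16, 91485238 to 91507441), the other chain of that receptor, had equal means in both genotypes, at 112 CPM. It ran from 80.4 through 112 to 145 CPM in Arf6Q67L tumours and stood at 136, 114, 114 and 84.4 CPM in controls 1 to 4. The fitted log2 difference of 0.01 (SE 0.18, 95% interval -0.40 to 0.41, edgeR adjusted p = 0.994) changed sign with the tumour left out. Within a tumour the log2 ratio of Ifnar1 to Ifnar2 counts was 1.48 ± 0.25 (n = 6, SD) and 1.14 ± 0.36 (n = 4, SD), a difference of 0.35 with an exact permutation p of 0.119 (0.595 adjusted over the 5 ratios compared). It was 0.20 without control 4 and 0.49 without control 1, where the unadjusted exact permutation p was 0.0357.

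Of the chains of the interferon-gamma receptor, Ifngr1 (chromosome 10, 19591949 to 19610229), the ligand-binding one, varied 3.24 times between tumours. It ran from 89.0 through 166 to 289 CPM in Arf6Q67L tumours and stood at 152, 234, 267 and 131 CPM in controls. The low tumours were Arf6Q67L 1 and 2 and the highest was Arf6Q67L 5, so the spread lay within a genotype. The fitted log2 value was -0.25 (SE 0.34, 95% interval -1.0 to 0.50, edgeR adjusted p = 0.813), and -0.06 without control 3.

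Ifngr2 (chromosome 16, 91547072 to 91565623), the chain that recruits JAK2, ran from 78.8 through 92.1 to 140 CPM in Arf6Q67L tumours and stood at 96.9, 144, 77.8 and 107 CPM in controls 1 to 4. Both ends of the range were controls. On the log2 scale the genotypes differed by -0.09 (SE 0.19, 95% interval -0.53 to 0.34, edgeR adjusted p = 0.884), a value that was 0.09 without control 2. The log2 ratio of Ifngr1 to Ifngr2 counts ran from -0.54 in Arf6Q67L tumour 1 to 1.78 in control 3, and its means of 0.64 ± 0.81 (n = 6, SD) and 0.86 ± 0.64 (n = 4, SD) did not differ beyond this spread (exact permutation p = 0.652, adjusted p = 0.652). The ratio of Ifngr1 to Ifnar1 likewise gave a difference of -0.30 (exact permutation p = 0.543, adjusted p = 0.652), with Arf6Q67L tumours 1 and 2 at -0.59 and -0.57 and all other tumours above 0. Without Arf6Q67L tumour 1 that difference was -0.09, and without control 1 it was -0.50.

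Il10rb (chromosome 16, 91406164 to 91425834) ran from 23.0 through 28.3 to 36.8 CPM in Arf6Q67L tumours and stood at 28.2, 33.4, 34 and 46.5 CPM in controls 1 to 4. Of the Arf6Q67L tumours 3 lay below every control, and control 4 was the highest of all. The fitted log2 value was -0.32 (SE 0.17, 95% interval -0.69 to 0.05, edgeR adjusted p = 0.481), and -0.16 without control 4. Of the chains that pair with it, Il10ra, the specific chain of the interleukin-10 receptor, averaged 33.6 ± 12.8 CPM with Arf6Q67L (n = 6, SD) and 80.9 ± 58.4 CPM in controls (n = 4, SD), or -1.27 on the log2 scale (SE 0.44, edgeR adjusted p = 0.345). Of 11 genes of the interleukin-10 family 5 could be tested, all negative at a median of -0.48, with 0 past the threshold in edgeR or DESeq2 and 1 lower at an unadjusted p under 0.05. That median was -0.87 without Arf6Q67L tumour 3 and -0.28 without control 4. Over all genes 50.3% were negative and 7.05% were lower at an unadjusted p under 0.05. Ifnlr1, the specific chain for interferon-lambda, held at most 8 counts in any tumour, and Il22ra1 was at 0 in all 10. Ifnar2 and Il10rb overlap the span of the predicted readthrough gene Gm21970 on the same strand, so that reads shared with it cannot be told apart.

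**Figure D2:**
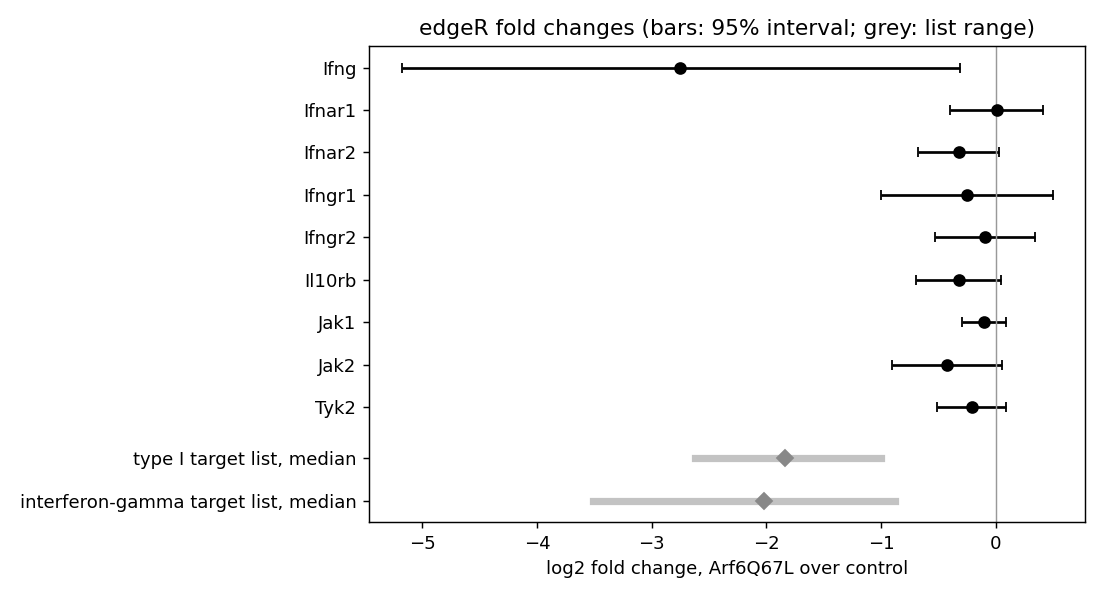
The horizontal axis is the edgeR log2 fold change of Arf6Q67L over control tumours. Points with bars are the 9 tested members with their 95% interval (unadjusted). Grey diamonds and bands are the median and range of the type I and interferon-gamma target lists, with medians at -1.84 and -2.02. The bands lie left of the points of all receptors and kinases, but the intervals of Ifngr1 and Jak2 reach the interferon-gamma band, which ends at -0.88.

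Of the receptor genes, 4 lie side by side on chromosome 16 in the order Ifnar2, Il10rb, Ifnar1 and Ifngr2, all on the plus strand within 193 kb. In 1 tumour some of them were low together with the genes beside them. In Arf6Q67L tumour 3 Ifnar2 deviated by -0.87 on the log2 scale from the median of the other 9 tumours, Ifnar1 was at -0.50, Il10rb at -0.33 and Ifngr2 at -0.14. Ifnar2 and Ifnar1 were lowest of all tumours there, and Il10rb and Ifngr2 were not. The 8 tested genes next to the cluster, Tmem50b, Dnajc28, Gart, Son, Donson, Cryzl1, Itsn1 and Atp5o, were each lowest of all 10 tumours in this one, with a median deviation of -0.93. Son, which encodes a splicing cofactor, stood at 302 CPM there and between 484 and 655 CPM in the other 9. Over all tested genes 14.3% were lowest in that tumour. Between genotypes the 8 neighbours had a median log2 fold change of 0 (from -0.10 to 0.13 with 1 tumour left out), with 0 past the threshold in edgeR or DESeq2 and 0 at an unadjusted p under 0.05.

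The low values lay toward the distal end of the chromosome. From 90 Mb onward, 43 of 64 tested genes other than members were lowest in Arf6Q67L tumour 3, at a median deviation of -0.91, while the 439 tested genes before that point had a median of -0.05. In the other 9 tumours the distal median lay between -0.10 and 0.15. This boundary was chosen after the values were seen. Other chromosomes shifted too, by the median of each gene's log2 deviation from its median over the 10 tumours. Chromosome 10, which carries Ifng and Ifngr1, was at 0.16 in Arf6Q67L tumour 6 and 0.11 in control 2. Chromosome 13 was at 0.32 in Arf6Q67L tumour 3. DNA copy number was not measured, and its part in these values was not tested. With each tumour's levels set relative to the median of the 8 neighbours, the difference between genotypes was -0.25 for Ifnar2 (exact permutation p = 0.176), -0.22 for Il10rb (exact permutation p = 0.41), 0.10 for Ifnar1 (exact permutation p = 0.624) and 0.01 for Ifngr2 (exact permutation p = 0.967).

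**Figure D3:**
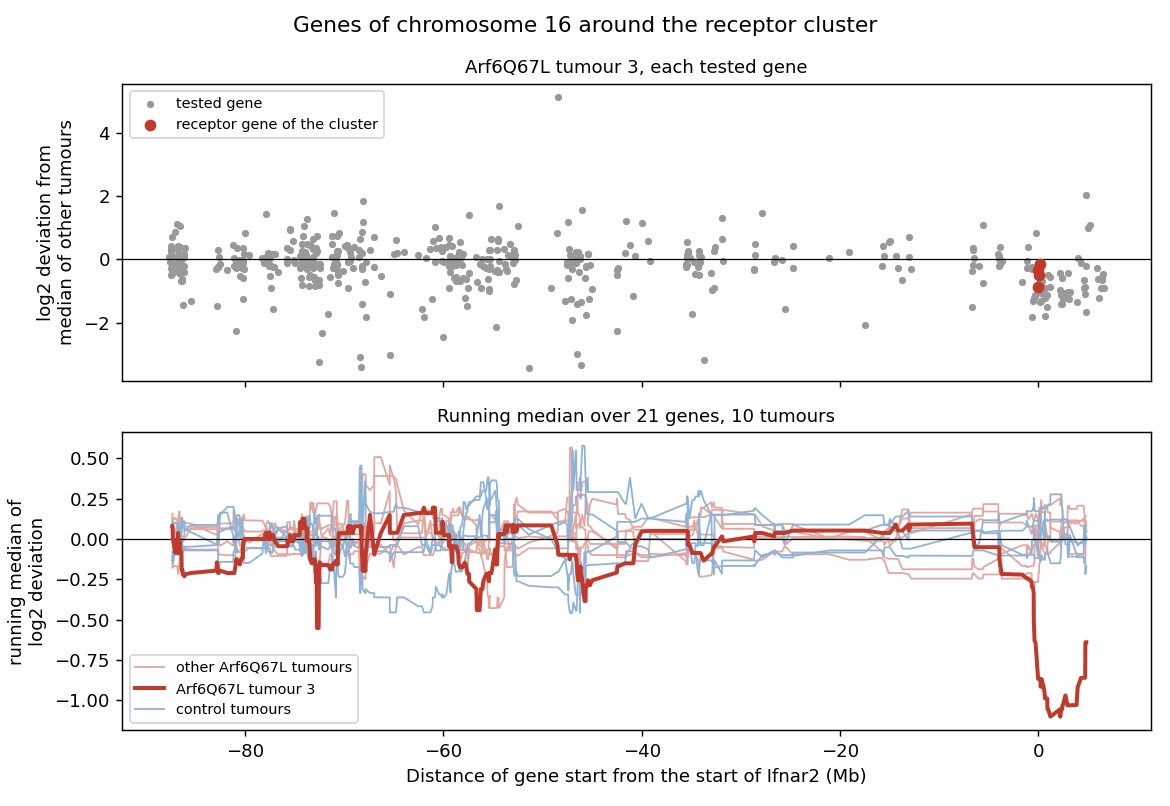
The horizontal axis is the distance in Mb from the start of Ifnar2 along chromosome 16, and the vertical axes are the log2 deviation of a tumour from the median of the other 9, for each tested gene in Arf6Q67L tumour 3 (top) and as a running median over 21 genes for all 10 tumours (bottom). Only the line of Arf6Q67L tumour 3 drops at the receptor cluster and beyond, where the median of the genes that are no members is -0.91.

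Among the kinases Jak1 (chromosome 4, 101152367 to 101265282), which serves both receptor types, was the steadiest member. It ran from 220 through 235 to 264 CPM in Arf6Q67L tumours and stood at 266, 269, 241 and 243 CPM in controls 1 to 4. The groups overlapped within this narrow range. The SD of its log2 CPM over the 10 tumours was 0.11, where the median over all tested genes was 0.35. Between genotypes the log2 difference was -0.10 (SE 0.08, 95% interval -0.29 to 0.09, edgeR adjusted p = 0.693).

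Jak2 (chromosome 19, 29251828 to 29313080), which acts at the interferon-gamma receptor and at many other cytokine receptors, had the most negative value of the kinases. It ran from 58.9 through 71.7 to 82.0 CPM in Arf6Q67L tumours and stood at 73.6, 94.1, 67.0 and 153 CPM in controls, so that control 4 stood apart from the other 9 tumours. The log2 fold change of -0.42 (SE 0.22, 95% interval -0.90 to 0.06, edgeR adjusted p = 0.477) was -0.10 without control 4. Tyk2 (chromosome 9, 21104068 to 21131243), the kinase bound to IFNAR1, ran from 60.8 through 62.5 to 72.5 CPM in Arf6Q67L tumours and stood at 60.1, 84.6, 60.9 and 94.4 CPM in controls 1 to 4, with controls 2 and 4 above all Arf6Q67L tumours. Its log2 fold change of -0.21 (SE 0.14, 95% interval -0.51 to 0.09, edgeR adjusted p = 0.586) was -0.07 without control 4.

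Control 4 thus held the highest Jak2, Tyk2, Il10rb and Ifng of all tumours. It also had the highest summed level of T cell markers and of macrophage markers (4500 CPM, against 1700 to 3000 CPM in the other controls and 1150 to 2230 CPM in Arf6Q67L tumours, with 0 of 10 markers at 0). Natural killer, dendritic, B cell and muscle markers were also highest in control 4. Muscle markers summed to 1080 CPM there, against at most 31.6 CPM in the other controls and 691 CPM in Arf6Q67L tumours. Endothelial, fibroblast, keratinocyte, mast cell and melanocyte markers were highest in other tumours. The part of these cells in the members' levels in control 4 was not tested. The log2 ratio of Jak1 to Jak2 was 1.72 ± 0.18 (n = 6, SD) and 1.47 ± 0.56 (n = 4, SD), with 0.67 in control 4 (exact permutation p = 0.371, adjusted p = 0.652). That of Jak1 to Tyk2 was 1.88 ± 0.12 (n = 6, SD) and 1.79 ± 0.35 (n = 4, SD, exact permutation p = 0.552, adjusted p = 0.652).

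Set side by side per kilobase of exon, levels (CPM per kb) were highest for Ifngr1, at 58.0 ± 25.6 (n = 6, SD) and 68.9 ± 22.8 (n = 4, SD). Jak1 (32.9 ± 2.45 and 35.3 ± 2.08), Ifngr2 (26.4 ± 5.76 and 28.2 ± 7.33) and Ifnar1 (18.9 ± 4.02 and 18.9 ± 3.57) followed, with the same n. Jak2 (14.4 ± 1.79 and 19.3 ± 7.75), Ifnar2 (12.1 ± 2.5 and 15.1 ± 1.23), Tyk2 (9.44 ± 0.689 and 10.9 ± 2.5) and Il10rb (7.46 ± 1.31 and 9.33 ± 2.04) came next. Every pair of neighbours in this order overlapped over the 10 tumours. The places of Ifnar2 and Il10rb are less certain, as reads shared with Gm21970 could affect their levels. Ifng, at 0.454 ± 0.551 and 3.07 ± 3.27 CPM per kb, lay below all of these in its mean, and its highest tumour reached 7.44, within the range of Il10rb (6.04 to 12.2). Ifnb1 did not exceed 0.27 CPM per kb.

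Downstream of the receptors, most transcription factors of the pathway had negative log2 fold changes. In the list of STAT genes, Irf9 and Jak3, 8 of 9 had a negative log2 fold change at a median of -0.69, which was -0.18 without control 2. Of these, 0 passed in edgeR (4 were lower at an unadjusted p under 0.05) and 1 passed in DESeq2. Over all genes 50.3% were negative, 7.05% were lower at that p and 1.28% were called lower in DESeq2. Stat2, a STAT factor of the type I response, averaged 70.9 ± 20.3 CPM with Arf6Q67L (n = 6, SD) and 170 ± 32.4 CPM in controls (n = 4, SD), without overlap (-1.26 on the log2 scale, SE 0.21, edgeR adjusted p = 0.199, DESeq2 adjusted p = 0.00019). Irf9, the DNA-binding partner of STAT2, was at -0.70 (SE 0.20) and Jak3, the kinase of the common gamma chain in lymphocytes, at -0.69 (SE 0.23) on the log2 scale.

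Inhibitors of the pathway were split, with 10 of 19 negative and 9 positive at a median of -0.09, which was 0.01 without Arf6Q67L tumour 6. In edgeR 0 of 19 passed, and 2 passed in DESeq2, both lower (1.28% of all genes were). At an unadjusted p under 0.05 in edgeR, 5 were lower and 1 higher, against 7.05% and 4.65% of all genes. Ptpn2, a phosphatase that removes phosphate from JAK1, had the lowest p, at 41.3 ± 1.85 CPM with Arf6Q67L (n = 6, SD) and 51.9 ± 1.71 CPM in controls (n = 4, SD), or -0.33 on the log2 scale (SE 0.07, edgeR adjusted p = 0.233, DESeq2 adjusted p = 7.49e-05), with no overlap between groups. Usp18, which blocks JAK1 at IFNAR2 and is itself induced by interferon, was at -1.67 (SE 0.44) and the phosphatase gene Ptpn6 at -1.04 (SE 0.36). Sh2b3, an adaptor that restrains JAK2, was positive at 0.50 (SE 0.15).

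Genes induced by interferon had negative log2 fold changes throughout. In the interferon-gamma target list 25 of 25 were negative at a median of -2.02, from -3.51 to -0.88, and in the type I list 20 of 20 at a median of -1.84, from -2.62 to -1.0. In edgeR 0 members of either list passed, with 24 of 25 and 20 of 20 lower at an unadjusted p under 0.05. Over all genes 7.05% were lower at that p. In DESeq2 9 of 25 and 18 of 20 passed, all lower, against 1.28% of all genes. The groups did not overlap for 3 of 25 and 15 of 20 genes, against 2.44% of all genes in either direction. These lists were known to be lower from earlier results on the same tumours, so they are no independent evidence.

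Other cytokine receptors were mixed. Of 24 tested receptor chains that signal through JAK kinases 16 were negative at a median of -0.38 (-0.20 without control 1 and -0.25 without Arf6Q67L tumour 6), with 0 past the threshold in edgeR (5 lower at an unadjusted p under 0.05) and 2 in DESeq2, both lower. Over all genes 50.3% were negative, 7.05% were lower at that p and 1.28% were called lower in DESeq2. Csf3r, the receptor for granulocyte colony-stimulating factor, was at -1.35 (SE 0.32), Il12rb1, a chain of the interleukin-12 receptor, at -2.05 (SE 0.63), Il21r at -1.48 (SE 0.51) and Csf2ra at -0.93 (SE 0.32). Inducers of interferon-gamma were negative in 8 of 8 tested genes at a median of -0.89, with 0 past the threshold in edgeR or DESeq2 and 2 lower at an unadjusted p under 0.05. Among them the cytokine subunit genes Ebi3 and Il27 were at -0.97 (SE 0.40) and -1.66 (SE 0.70), Il15 at -0.81 (SE 0.38) and the T-box factor gene Eomes at -1.14 (SE 0.53).

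Tumours with more Ifng had higher target genes. Over the 10 tumours the mean log2 CPM of the 25 interferon-gamma targets correlated with the log2 CPM of Ifng with Pearson's r = 0.96 (permutation p = 4e-05, adjusted p = 0.000105) and Spearman's rho = 0.96 (permutation p = 5e-05, adjusted p = 0.00015). Without the 2 tumours farthest from the median of Ifng, Arf6Q67L tumour 1 and control 4, r was 0.92. The list level averaged 4.12 with Arf6Q67L and 6.28 in controls, so the values over 10 tumours can include the difference between genotypes. Within the 6 Arf6Q67L tumours alone r was 0.93 (exact permutation p = 0.00139, adjusted p = 0.00417) and rho was 1.0 (exact permutation p = 0.00278, adjusted p = 0.00834). The 4 controls were too few for a value of their own. Controls 1 and 3, at -0.29 and -0.39 log2 CPM of Ifng, had list levels of 5.43 and 5.39, between Arf6Q67L tumour 4 (4.71) and Arf6Q67L tumour 5 (5.85), whose Ifng was higher (0.49 and 0.76).

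The T cell markers followed Ifng as well. Their mean log2 CPM gave r = 0.95 (permutation p = 7e-05, adjusted p = 0.000105) and rho = 0.90 (permutation p = 0.00087, adjusted p = 0.0013) over 10 tumours, and r = 0.91 without the same 2 tumours. It averaged 1.34 with Arf6Q67L and 3.08 in controls, so these values too can include the difference between genotypes. Within the 6 Arf6Q67L tumours r was 0.89 (exact permutation p = 0.0236, adjusted p = 0.0354) and rho 0.83 (exact permutation p = 0.0583, adjusted p = 0.0874), and r was 0.59 without the 2 tumours farthest from the median. The other relation computed, that of Ifnb1 with the type I targets, is not given over all tumours because the target level separates the genotypes, and within the Arf6Q67L tumours Ifnb1 held only 0 or 1 count.

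**Figure D4:**
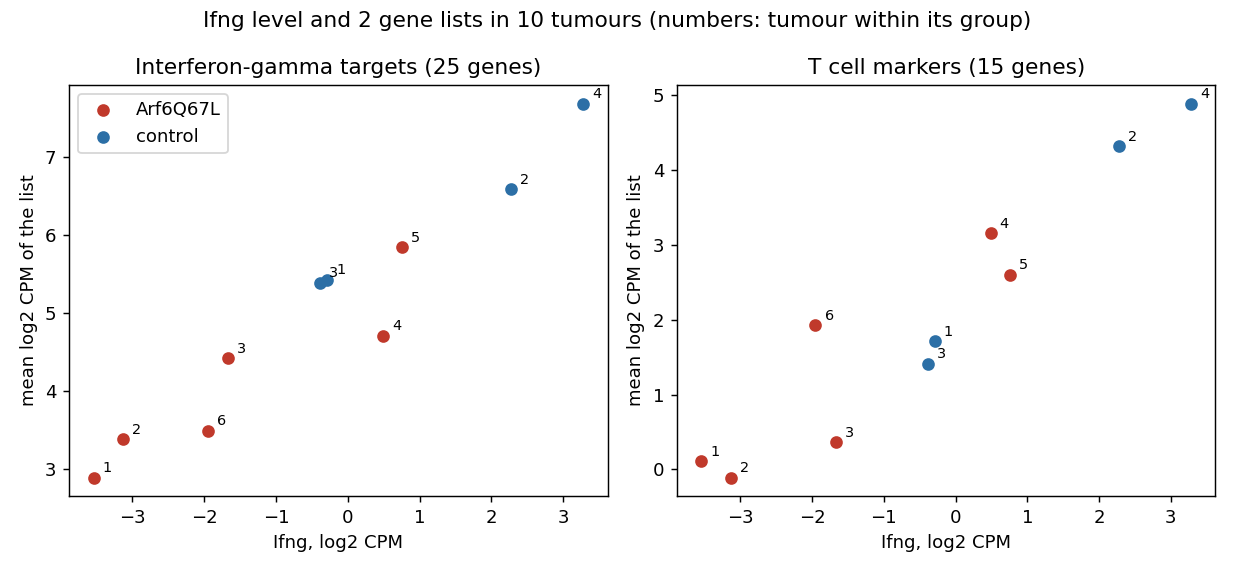
The horizontal axes are log2 CPM of Ifng and the vertical axes the mean log2 CPM of 25 interferon-gamma targets (left) and 15 T cell markers (right), with 1 point per tumour, numbered within its group. The points rise together in both panels, with r = 0.96 and r = 0.95 over the 10 tumours.

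Markers of other cells the tumours could hold were summed as well. Between Arf6Q67L and control tumours, summed levels ran from 8.75 to 35.1 and from 14.8 to 63.6 CPM for dendritic cells, from 1.22 to 7.87 and from 1.59 to 18.7 CPM for B cells, and from 86.6 to 273 and from 147 to 326 CPM for endothelium. They ran from 4670 to 8100 and from 4170 to 7980 CPM for fibroblasts, from 3.86 to 6.41 and from 4.39 to 6.27 CPM for keratinocytes, and from 13.4 to 691 and from 3.1 to 1080 CPM for muscle. Endothelial markers were negative in 7 of 8 at a median of -0.74, with 0 past the threshold in edgeR (5 lower at an unadjusted p under 0.05) and 2 in DESeq2. Macrophage markers were negative in 8 of 10 at a median of -0.83, with 0 past it in either tool (6 lower and 1 higher at an unadjusted p under 0.05). Medians were positive for fibroblasts (0.27) and muscle (0.47), with 0 past the threshold in either tool and 0 at an unadjusted p under 0.05. Mast cell markers summed to 52.6 to 908 CPM with Arf6Q67L and 17.4 to 83.8 CPM without it. Their log2 fold change was positive for 7 of 7 at a median of 3.13, with 0 past the threshold in edgeR (6 higher at an unadjusted p under 0.05) and 5 in DESeq2. Over all genes 7.05% were lower and 4.65% higher at that p, and 50.3% had a negative log2 fold change. In DESeq2 1.28% of all genes were called lower and 0.789% higher. The part of these cells in the members' levels was not tested.

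The genes whose pattern over the 10 tumours was most like that of Ifng, by Pearson's r of log2 CPM, were Bcl11b (0.984), Gm49751 (0.98), Gmfg (0.978), Ccl5 (0.977) and Psmb9 (0.975). Gm49751 lies inside Ifng on the same strand, so its reads may be those of Ifng. Those most like Ifnar2 were 4930404I05Rik (0.973), Ifi27 (0.948), Hoxb9 (0.92), Sult6b1 (0.919) and Hoxb6 (0.918). 4930404I05Rik is on chromosome 16 as well. As the highest of 17286 values each, these are descriptions and carry no test.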

How the data were processed

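Polyadenylated RNA from 10 tumours was sequenced with a stranded Illumina kit, per the labels' protocols. The authors deposited raw counts per Ensembl gene. Per the submitters' processing notes the tools were STAR 2.5.2b, featureCounts 1.5.1 and DESeq2 1.18.0, on GRCm38. No strand setting is given in the sources used here. The genotype label set the groups, and numbers of tumours follow accession order. Titles carry a different number for each tumour, some of them consecutive within a genotype, without saying what it marks. No litter or batch is named, so p-values measure the spread between these tumours. No pair of tumours in a group was a repeat (chi-square per gene of at least 70.2).

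Counts were fitted with edgeR 4.0.16 in R 4.3.3 over the whole table: filterByExpr (minimum count 10, 17286 genes), TMM, estimateDisp, robust glmQLFit and glmQLFTest, Benjamini-Hochberg adjustment, threshold 0.05. The SE is the fold change over the root of F. Log2 CPM used a prior count of 2, and ratios an added count of 0.5. Exact permutation tests used all 210 splits into 6 and 4, whose smallest p is 0.00476. Intervals and floors cover counting error or tumour spread only. Alternatives were DESeq2 1.42.0, limma 3.58.1 (voom), edgeR's classic test, other scalings, no filter, a term for sex and each tumour left out. On simulated data for 6 against 4 tumours and 17286 genes, edgeR found 44% of 2-fold and 66% of 4-fold changes with 4 false calls. DESeq2 found 63% and 80% with 60 false calls. Whether these shares hold for the counts of the tumours was not tested. In those counts edgeR called 0 of 17286 genes. It thus called 0 of the 25 interferon-gamma targets, whose median log2 fold change was -2.02. Symbols, coordinates and exon lengths are from GENCODE M21 (GRCm38) and matched 99.6% of identifiers. Members, lists and tests were chosen with earlier results of these data known. Named genes are the members, up to 4 genes of lowest p per list, the tested neighbours on chromosome 16 and the 5 genes most like Ifng and the receptor or kinase of lowest p. Marker genes, genes at or near 0 and chains that pair with Il10rb were named besides.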

Additional observations from a re-analysis of the deposited data

How the results depend on the processing

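Of 157 alternative values for the 9 tested members, 150 kept the sign and stayed short of the threshold, and 0 of these 9 passed it in any fit. The exceptions in sign were Ifnar1 with sex as a term (-0.02) and when a tumour was left out (from -0.10 to 0.12, with -0.08, -0.04 and 0.00 without Arf6Q67L tumours 1, 2 and 4), and Ifngr2 without control 2 (from -0.22 to 0.09 over the tumours left out) and relative to its neighbours (0.01). That last setting was chosen after seeing the data. Over the tumours left out, the log2 ratio of Ifngr1 to Ifngr2 ran from -0.43 to 0.09 (0.02 without Arf6Q67L tumour 1), that of Ifnar1 to Ifnar2 from 0.20 to 0.49, that of Ifngr1 to Ifnar1 from -0.50 to -0.09, that of Jak1 to Jak2 from -0.01 to 0.38 and that of Jak1 to Tyk2 from -0.06 to 0.20. Ifng ran from -3.40 (without Arf6Q67L tumour 5) to -1.81 (without control 4), Ifngr1 from -0.48 to -0.06, and the difference of Ifnb1 on the log2 scale from -1.19 to -0.68, the last without control 1. With all tumours, that of Ifnb1 was -0.95 at the prior count of 2, -1.71 at 0.5 and -0.54 at 5. Its size thus depended on the prior count. The median of the STAT list ran from -0.74 to -0.18, the last without control 2, that of other receptors from -0.56 to -0.20 and that of the interleukin-10 family from -0.87 to -0.28. Over all genes edgeR called 0 higher and 0 lower, with 804 and 1219 at an unadjusted p under 0.05. DESeq2 called 154 and 249, the classic exact test 40 and 154, and limma-voom 1 and 1. Without control 1 edgeR called 1 gene higher, so leaving a tumour out gave from 0 to 1. The causes were not tested. The correlation of Ifng with its targets stayed between 0.94 and 0.98. No paired analysis was possible because the labels give no replicate numbers. Depth limits Ifnb1, which held at most 8 counts in any tumour. It also limits 18 of the 19 other interferon genes, all but Ifne, which held at most 2 counts each.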
